A study of Caenorhabditis elegans with 2 samples.

Results

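The V-ATPase is a rotary proton pump of lysosomes, endosomes and some plasma membranes. Its V1 sector faces the cytoplasm and hydrolyses ATP, which turns a rotor that drives protons through the membrane sector, V0. In V1, subunits A and B form the ring that binds ATP, D and F form the central rotor shaft, E and G form the outer stalks, and C and H sit between V1 and V0. In the worm the pump works in the intestine, the excretory cell and the epidermis, among other tissues.

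The genes described here are the 8 that encode the V1 sector, vha-8 to vha-15, out of 19973 protein-coding genes. They were taken by name as the members of this sector, and RefSeq names each product as a V-type proton ATPase subunit. The choice was made with earlier results of these data known, so the counts below are descriptions. All 8 were found in the annotation. The measurements are from chromatin immunoprecipitation with sequencing (ChIP-seq) of NHR-77, a nuclear hormone receptor of Caenorhabditis elegans, fused to eGFP. Whole L4 larvae of mixed sex were used, in 1 group of 2 biological replicates. Both came from strain OP353, which carries the mutation unc-119(tm4063) III and the transgene insertion wgIs353, so both share this background and a tagged copy of the receptor. No untagged sample was analysed here, so recovery by NHR-77 itself cannot be told apart from other recovery of the same DNA. In whole animals, binding in few cells and weak binding in many also cannot be told apart.

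On the ce11 build, each replicate list and the pooled list held 30000 regions with background included, and the authors' reproducible set, thresholded on the irreproducible discovery rate (IDR), held 3457 peaks. That set was the top of the pooled list by signal, so pooled ranks are the ranks within it. Ranks are by the authors' signal value, with 1 the strongest in a list. The scale of the signal differs between lists, and signals are therefore not compared across them. Distances run from the summit of a region to the annotated start of the gene, with negative values upstream. Each V1 gene had 1 annotated start, which lay from 0 to 33 bp before the start codon.

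Of the 8 V1 genes, 7 had an IDR peak with its summit within 2000 bp of the start, while 18.4% of all protein-coding genes did. Each of the 7 had exactly 1 such peak, and all 7 summits lay upstream, between -143 and -541 bp. An upstream IDR peak within the same distance was found for 2990 of 19973 protein-coding genes, or 15%. The exception was vha-11, which encodes subunit C. Within 500 bp of the start, 6 of 8 V1 genes had a peak (10.2% of all protein-coding genes), the vha-13 summit lying just beyond that distance. Within 250 bp only vha-9 and vha-14 did, and the share of all protein-coding genes was not counted at that distance. These shares are descriptions, with no test, since 1 group was measured.

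The 101 bp round 5 of the 7 summits are shown so that the words counted at the V1 summits can be read in place. The 5 were not picked for their signal, and the windows of vha-10 and vha-13 are not shown. They are RefSeq sequence of the WBcel235 assembly (ce11), 5′ to 3′ on the strand of the gene, and capitals mark GAGAGA or its reverse complement TCTCTC, the GATA word AGATAG and the GC box CCGCCC.
vha-8 (subunit E), chrIV:6790578-6790678, plus strand: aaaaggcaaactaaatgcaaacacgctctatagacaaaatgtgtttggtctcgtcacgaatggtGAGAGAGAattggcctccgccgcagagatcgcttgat
vha-9 (subunit F), chrII:10303863-10303963, minus strand: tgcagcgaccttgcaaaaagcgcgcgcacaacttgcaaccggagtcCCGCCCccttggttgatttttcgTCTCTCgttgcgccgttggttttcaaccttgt
vha-12 (subunit B), chrX:4190709-4190809, plus strand: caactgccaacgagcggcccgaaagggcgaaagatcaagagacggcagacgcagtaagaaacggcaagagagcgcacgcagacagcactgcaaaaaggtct
vha-14 (subunit D), chrIII:9507907-9508007, plus strand: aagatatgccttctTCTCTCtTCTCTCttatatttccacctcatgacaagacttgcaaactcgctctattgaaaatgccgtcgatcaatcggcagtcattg
vha-15 (subunit H), chrX:2237604-2237704, plus strand: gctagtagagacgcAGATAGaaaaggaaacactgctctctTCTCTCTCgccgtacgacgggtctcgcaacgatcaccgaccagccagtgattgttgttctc

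**Figure D1:**
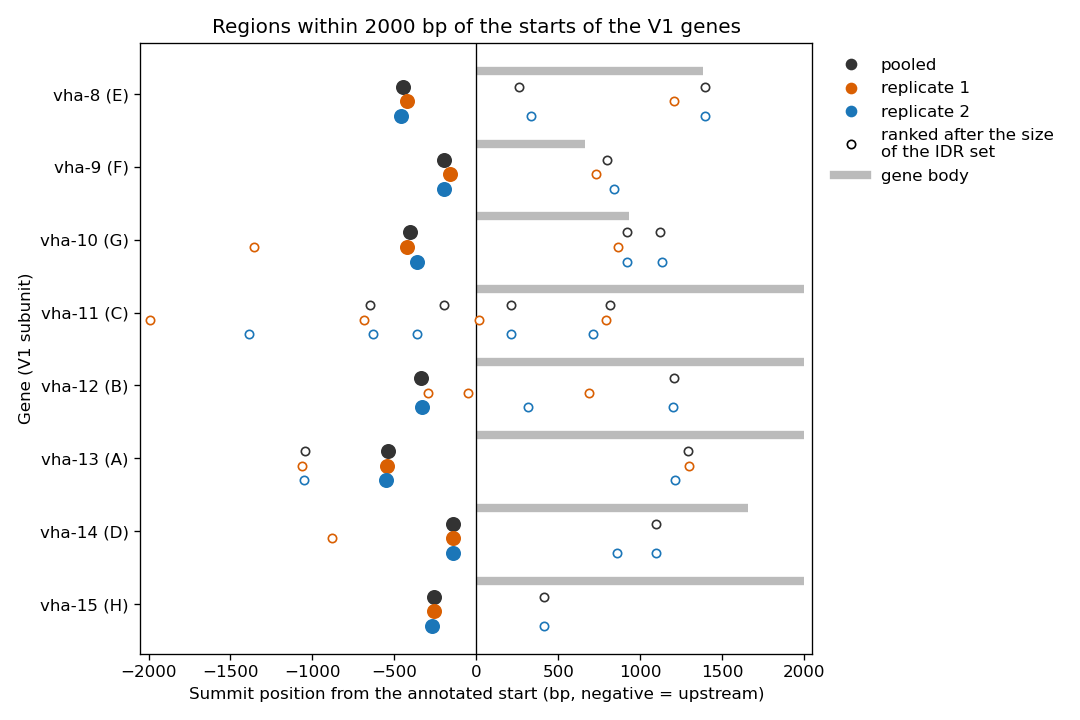
Summit positions of every region within 2000 bp of a V1 gene's start, in bp from the start, for the pooled list (dark), replicate 1 (orange) and replicate 2 (blue). Filled points rank within the first 3457 of their list, open points rank later, and grey bars mark the gene up to 2000 bp. All filled points lie upstream of the start, and vha-11 has none.

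The catalytic ring was marked at both of its genes. Subunit A, which hydrolyses ATP, is encoded by vha-13 (WBGene00013025, chromosome V, 14351709 to 14354422, plus strand). Its peak, at 14351090 to 14351203, had its summit at -541 bp, the farthest upstream of the 7, and only 114 bp of width. The gene upstream, cept-2, ends 226 bp before vha-13 on the same strand, and the summit lay in the annotated 3′ UTR of cept-2. The peak ranked 443 in the pooled list, with a signal of 115, and ranked 243 in replicate 1 and 829 in replicate 2, with signals of 51.7 and 62.5. Both replicates thus placed it among their strong regions, with summits at -543 and -553 bp. A weaker region farther upstream was also present in the pooled and replicate lists, at -1048 bp in the pooled list (rank 8018), -1061 bp in replicate 1 (10713) and -1049 bp in replicate 2 (10765). Inside the coding exons a further weak region ranked 12729, 29100 and 10527 in those lists, at 1293, 1296 and 1211 bp.

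Subunit B, which alternates with A in the ring and also binds nucleotide, is encoded by vha-12 (WBGene00006921, chromosome X, 4191094 to 4193144, plus strand). This was the strongest V1 peak in the pooled list, and the 2 replicates ranked it least alike. It lay at 4190579 to 4190938, in intergenic DNA, with its summit at -335 bp, a pooled rank of 235 and a pooled signal of 142. In replicate 2 it ranked 106 (signal 127, −log10 q 4.01), the best replicate rank of any V1 region. In replicate 1 the strongest overlapping region ranked only 4775 (signal 15.4, −log10 q 2.49), with its summit at -294 bp. A second overlapping region of replicate 1, at -53 bp, ranked 5119 (signal 14.8, −log10 q 2.34), and its summit lay beyond the end of the IDR peak. The larger rank was 45.0 times the smaller. Including vha-12 itself, 2 of the 3405 IDR peaks with a region in both replicate lists had a ratio that large, and 1 of the 300 strongest. Without replicate 2, vha-12 is therefore not among the V1 genes with a strong region.
Weak regions within the coding exons of vha-12 did not match between the replicates. Replicate 1 had rank 23713 at 690 bp, and replicate 2 had ranks 11476 and 9399 at 312 and 1201 bp. The pooled list kept the last of these positions, at 1206 bp, with rank 15255.

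The rotor shaft was marked at both of its genes, closest to the start of all V1 genes. Subunit D, encoded by vha-14 (WBGene00010130, chromosome III, 9508100 to 9509757, plus strand), is the shaft that turns inside the ring. Its peak at 9507777 to 9508136 had the summit nearest to a start, at -143 bp, and the summit was at the same base in the pooled list and in both replicates. The ranks were 731 pooled, 284 in replicate 1 and 1751 in replicate 2, with signals of 97.0, 49.2 and 45.7. The position was thus identical while the rank differed 6.17-fold, a ratio larger than that of 92.9% of IDR peaks. Upstream of vha-14 the next gene, sod-4, lies 7724 bp away. Of the remaining regions, replicate 1 had one at -878 bp (rank 27042), and replicate 2 had one in a coding exon at 860 bp (12936). An intronic region at 1096 bp ranked 12691 in replicate 2 and 22888 in the pooled list.

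Subunit F, the other part of the shaft, is encoded by vha-9 (WBGene00006918, chromosome II, 10303050 to 10303713, minus strand). Its peak at 10303733 to 10304092 was the weakest of the 7. It ranked 1636 pooled, 2533 in replicate 1 and 1806 in replicate 2, with signals of 68.8, 21.5 and 45.0, and its summit lay at -200 bp in the 425 bp between vha-9 and gcy-4. The replicate summits were at -161 and -200 bp. Just past the 3′ end of vha-9, a weaker region was present in all 3 lists, with pooled rank 5036 at 797 bp, replicate 1 rank 7463 at 731 bp and replicate 2 rank 3731 at 839 bp. It lay nearer to the start of clpp-1, which encodes the mitochondrial Clp protease subunit, at -74, -140 and -32 bp. No other region was found within 2000 bp of vha-9 in these lists.

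The outer stalks were marked at both of their genes. The replicates ranked each of these peaks alike, with ratios of 1.07 and 1.42 between the larger and the smaller rank. At vha-9, of the shaft, the ratio was 1.40, so close ranks were not particular to the stalks. Subunit E, encoded by vha-8 (WBGene00006917, chromosome IV, 6791074 to 6792455, plus strand), runs the length of a stalk and keeps the ring from turning with the rotor. Its peak at 6790559 to 6790684, 126 bp wide, ranked 254 pooled, 301 in replicate 1 and 281 in replicate 2, with signals of 139.6, 48.1 and 90.8. The ratio of 1.07 between the replicate ranks was smaller than that of all but 5.29% of IDR peaks. The summit, at -446 bp from vha-8, lay in the 585 bp between vha-8 and the divergent gene C17H12.2, a Mab-21 domain gene, whose start is nearer at -140 bp. Which of these genes the site belongs to was not tested. When only the nearest protein-coding start counted, vha-8 had no peak and 6 of 8 V1 genes did.
Past the 3′ end of vha-8 lay a region of moderate rank, 4499 pooled and 4139 in replicate 2 at 1397 bp, with an overlapping region of replicate 1 in the 3′ UTR at 1203 bp (rank 7553). Within the coding exons, weak regions ranked 14267 pooled at 262 bp and 15848 in replicate 2 at 336 bp.

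Subunit G, the partner of E in each stalk, is encoded by vha-10 (WBGene00006919, chromosome I, 5609341 to 5610270, minus strand). Its peak at 5610492 to 5610851 ranked 1317 pooled, 1118 in replicate 1 and 1592 in replicate 2, with signals of 76.1, 30.7 and 47.9. All 3 ranks were of similar size. The gene upstream, trpp-8, ends 103 bp before vha-10 on the same strand, and the pooled summit, at -402 bp, lay in an intron of trpp-8. The replicate summits were at -423 bp in that intron and at -360 bp in a coding exon. Also in reach of the peak was ubl-5, which encodes a ubiquitin-like protein, at -1831 bp. Regions at the other end of vha-10 were weaker and nearer to ubl-5 than to vha-10. They ranked 18310 and 13402 in the pooled list (916 and 1121 bp), 8314 in replicate 1 (864 bp), and 19967 and 4813 in replicate 2 (916 and 1135 bp). Replicate 1 also had a region at -1356 bp, ranked 20542.

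The subunits at the contact with V0 differed from each other. Subunit H, encoded by vha-15 (WBGene00020507, chromosome X, 2237911 to 2240255, plus strand), in yeast keeps V1 from hydrolysing ATP when it is detached from V0. Its peak at 2237474 to 2237833 ranked 1144 pooled, 831 in replicate 1 and 1355 in replicate 2, with signals of 80.7, 34.2 and 51.7. The summit lay at -257 bp in intergenic DNA, and the replicate summits at -256 and -269 bp. Only a coding-exon region remained beside it, ranked 15097 pooled at 414 bp and 16477 in replicate 2 at 413 bp. vha-15 had the fewest regions of the 8 genes in replicate 1, namely 1.

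Subunit C, the arm that joins a stalk to V0 and leaves the pump when V1 detaches in yeast, is encoded by vha-11 (WBGene00006920, chromosome IV, 2307815 to 2314567, minus strand). No IDR peak lay within 2000 bp of its start. The pooled list had 4 weak regions there, ranked 10171 at -648 bp, 22826 at -196 bp, 19266 at 209 bp and 12500 at 817 bp, the last 2 in introns. Replicate 1 had ranks 17763, 14658, 15594 and 8032, at -1989, -686, 19 and 792 bp. Replicate 2 had ranks 23033, 16941, 8085, 19267 and 28505, at -1390, -630, -360, 213 and 710 bp. The best regions of the replicates were thus at different places, in an intron in replicate 1 (−log10 q 1.59) and upstream in replicate 2 (−log10 q 2.20). None ranked within the first 3457 of its list.
The gene upstream of vha-11 on the same strand is vha-3, which encodes a proteolipid of V0, and 892 bp separate them. As background, vha-3 and vha-11 have been described as a polycistronic unit. The nearest IDR peak, at 2316794 to 2317153, had its summit at -2407 bp from vha-11, just outside the distance used, and at -1029 bp from vha-3. The nearest start to that summit was neither of these but that of Y38F2AL.12 on the opposite strand, at -29 bp, and the summit lay in the 5′ UTR of that gene. The peak ranked 1175 pooled, 1072 in replicate 1 and 1256 in replicate 2. Whether this site bears on vha-3 or vha-11 was not tested.

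**Figure D2:**
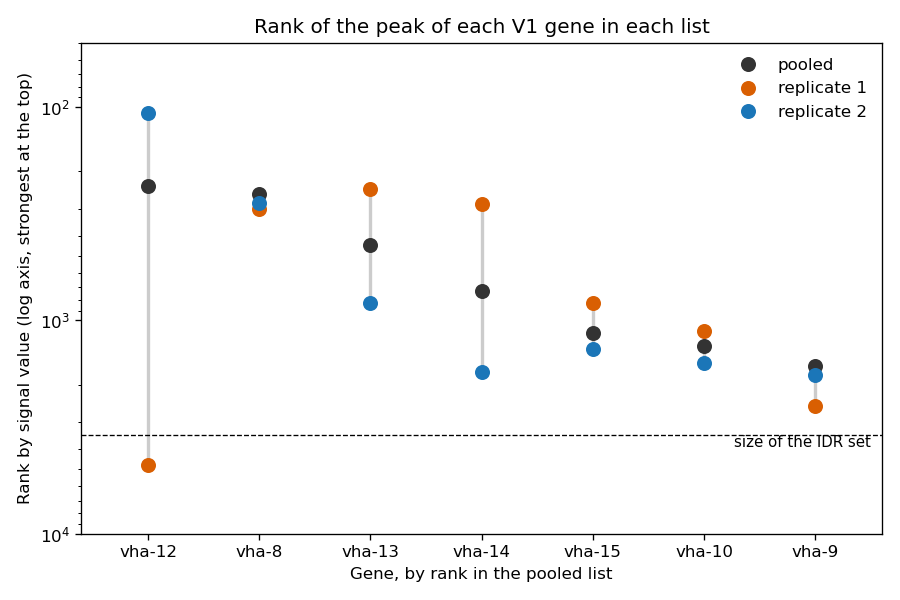
Rank by signal value (log axis, strongest at the top) of the peak of each V1 gene in the pooled list (dark), replicate 1 (orange) and replicate 2 (blue). Grey bars join the ranks of a gene and the dashed line marks rank 3457. Only the replicate 1 rank of vha-12, 4775, lies beyond that line.

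Compared over the 7 peaks, the replicates did not favour one side. Replicate 1 ranked 4 of the 7 V1 peaks higher (vha-10, vha-13, vha-14 and vha-15) and replicate 2 ranked 3 higher, while 45.0% of all IDR peaks ranked higher in replicate 1. The median rank ratio was 1.63 for the V1 peaks and 1.95 for all IDR peaks, whose quartiles were 1.37 and 3.13 and whose 90th percentile was 5.18. Of the V1 peaks, vha-14 and vha-12 exceeded that percentile. The replicate summits were a median of 33.0 bp apart at the V1 peaks and 34.0 bp at all IDR peaks, and from 0 bp at vha-14 to 63 bp at vha-10.
Among the 3457 strongest regions of replicate 1, 6 of 8 V1 genes had one within 2000 bp of the start, against 17.8% of all protein-coding genes. For replicate 2 the count was 7 of 8, against 18.1%. Strong regions in both replicates were found at 6 of 8 V1 genes, against 12.8%.

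**Figure D3:**
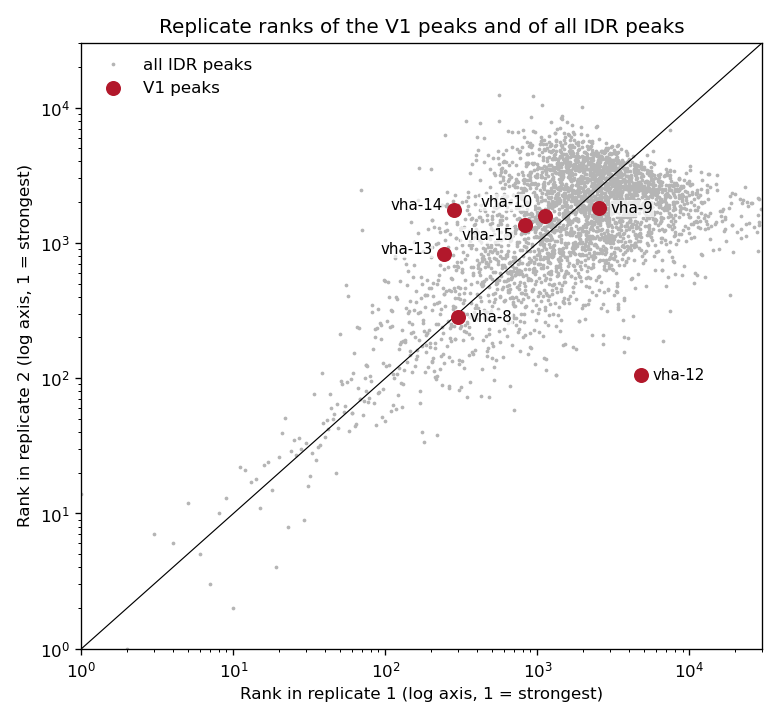
Rank in replicate 1 against rank in replicate 2 (log axes, 1 the strongest) for the IDR peaks with a region in both lists (grey) and the 7 V1 peaks (red). The line marks equal ranks. vha-8 lies on it (301 and 281), while vha-12 lies far below it (4775 and 106).

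Among the regions ranked after 3457, most of those near the V1 genes had q above 0.05 in each list. Every V1 gene, 8 of 8, had some region of the pooled list within 2000 bp, as did 59.6% of all protein-coding genes. In all, 21 pooled regions, 20 of replicate 1 and 24 of replicate 2 lay in reach. Of those ranked after 3457, a q-value under 0.05 was attached to 3 of 14, 6 of 14 and 7 of 17. The share of all regions ranked so with q under 0.05 was not counted, so these counts have no background beside them. Each strong region (6 of 6 in replicate 1, 7 of 7 in replicate 2) overlapped a region of the other list, whatever its rank. Over all regions in that range of rank, 95.2% and 96.0% did, so this was the usual outcome. Of the later ones, 10 of 14 and 10 of 17 overlapped a region of the other replicate, against 42.6% and 45.4% of all regions ranked so. The later regions of replicate 1 include the 2 that overlap the vha-12 peak, ranked 4775 and 5119. Both had q under 0.05 and overlapped the replicate 2 region ranked 106. They are therefore counted in the 6 of 14 and the 10 of 14.

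The sequences round the V1 summits were searched for 6 motifs, which were also chosen with earlier results of these data known. The word GAGAGA, searched on both strands, lay within 50 bp of 5 of 7 V1 summits (vha-8, vha-9, vha-13, vha-14 and vha-15), against 21.0% of all IDR summits and 6.11% of windows of the same length centred 300 bp before protein-coding starts. Within 25 bp it was at 3 of 7. At vha-8, vha-14 and vha-15 the word occurred more than once, and in vha-8 and vha-15 the copies overlap, as the capitals in the sequences above show. Nearest to a summit was the copy at vha-15, with its middle at -5.5 bp, and farthest was that at vha-13, at 34.5 bp. In the 600 bp before the start, 7 of 8 V1 genes held the word (all but vha-10), as did 33.5% of all protein-coding genes. vha-11, which has no peak, was among them.
A GATA word (AGATAA or AGATAG or TGATAA or TGATAG, on either strand) lay within 50 bp of 2 of 7 V1 summits, vha-13 and vha-15, against 40.2% of all IDR summits and 21.5% of the upstream windows. The match at vha-13 overlaps its GA repeat by 1 base. Within 25 bp of these summits, 0 of 7 had a GATA word. Within 50 bp of the summits of replicate 2, 1 of 7 did. In 600 bp before the start, 6 of 8 V1 genes held one, with 76.9% of all protein-coding genes.
The GC box CCGCCC was at 1 of 7, the summit of vha-9, at -1.5 bp, against 4.05% of all IDR summits and 1.95% of the upstream windows. Before the start it was again found for vha-9 alone, with 12.2% of all protein-coding genes. The E-box CACGTG, the site of the lysosomal regulator TFEB in mammals, was at 0 of 7, against 5.55% and 1.56%, and in the 600 bp before the start of 0 of 8 V1 genes and of 2007 of 19973 protein-coding genes. CTGATAA, an intestinal form of the GATA site that contains the word TGATAA, was at 0 of 7 summits (11.7% and 2.07%) and 0 of 8 genes (2773 of 19973). The nuclear receptor half-site AGGTCA was likewise at 0 of 7 summits (3.15% and 2.66%) and 0 of 8 genes (2994 of 19973). A word that is missing says only that these letters are not in these windows.
The summit windows of the V1 genes held a median of 52.5% G and C, against 41.6% for all IDR summits, whose quartiles were 35.6% and 48.5%. Values ran from 41.6% at vha-14 to 59.4% at vha-13, and 4 of 7 lay above the upper quartile. Base composition was not taken into account in the motif shares.

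In pooled rank the V1 peaks lay towards the strong side of the set. Their median rank was 831 in replicate 1 and 1355 in replicate 2, with no such median over all genes counted there. Their median pooled rank was 731, and 6 of 7 ranked better than 1547, the median of the strongest peak over the 3674 protein-coding genes with a peak. Their median distance was -335 bp, with -236 bp over those genes, of which 77.7% had the strongest summit upstream.
The V1 sector, with an IDR peak within 2000 bp at 7 of 8 genes, was set beside V0, the membrane sector that carries the protons, and its accessory subunits, with 9 of 12. Of all protein-coding genes, 18.4% had one. Within 500 bp the counts were 6 of 8 V1 genes and 6 of 12 V0 genes, with 10.2% of all protein-coding genes. Within 250 bp they were 2 of 8 and 3 of 12, with the share of all protein-coding genes not counted. The difference between the sectors was not tested. The V1 summits reached to -541 bp and the V0 summits to -1349 bp. Taken gene by gene, the median rank was 731 for V1 and 901 for V0. In the V0 median, the peak shared by vha-1 and vha-2 counts for each of them. The strongest V0 peak, shared by the proteolipid genes vha-1 and vha-2, ranked 102, above every V1 peak, and ranked 106 and 125 in the replicates. Next was unc-32, an a subunit, at rank 480 and -1334 bp. vha-6, another a subunit, also ranked lower in replicate 1, with 6786 in replicate 1 and 1226 in replicate 2, a smaller ratio than at vha-12. Over all IDR peaks, 45.0% ranked higher in replicate 1, counting differences of any size. The ratio at vha-6 was above 5.18, the 90th percentile of all IDR peaks, so a gap that large was not common. The second H-like gene, vha-18, had no IDR peak within 2000 bp, whereas vha-15 did.

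**Figure D4:**
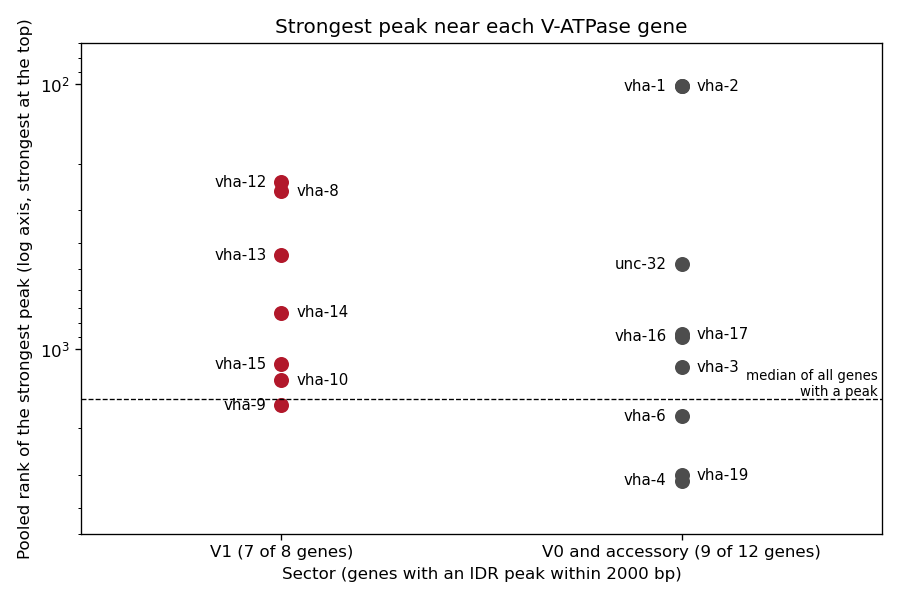
Pooled rank (log axis, strongest at the top) of the strongest IDR peak within 2000 bp of each V1 gene (red) and each V0 or accessory gene (grey). The dashed line is the median of all genes with a peak, 1547. Of the V1 genes with a peak, 6 of 7 lie above it.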

How the data were processed

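ChIP-seq lists of 2 biological replicates and of both pooled, on ce11, were used. The deposited listings give 1 control for both replicates and derive the IDR set from the 3 lists. The authors deposited a signal value per region (column 7), used only to rank regions within a list, and the −log10 q-value (column 9). For aligner, peak caller, IDR threshold and control type, the sources used here give nothing, and the read depth is unknown, so no interval for depth is given. The lists on ce10 were not used, since the annotation is of ce11.

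Summits were placed against Ensembl release 115 of WBcel235, with positions counted from 1, and product names and sequence were from RefSeq. A region counted for every gene with a transcript start within 2000 bp of the summit. Replicate regions were shared if they overlapped by 1 base or more, and for each peak the strongest overlapping region was taken. Motifs were searched within 50 bp of summits on both strands. Sequence round 2 of the summits, those of vha-10 and vha-13, is not reported here. Python 3.11.15, numpy 2.4.6 and matplotlib 3.10.9 were used, and the steps were tested on simulated data, where 200 of 200 cases of each step were recovered.

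No test was made, since 1 group of 2 replicates was measured. Members, lists and motifs were chosen with earlier results of these data known. The genes named are the 8 members, other protein-coding genes with a start within 2000 bp of a member's IDR summit, the 3 V0 or accessory genes with the strongest peak, other listed genes with a peak, and vha-18. Genes that flank a member or have a start by the peak nearest to vha-11 are named for position, and vha-6 was named after its values were seen. Alternatives for the window, start, overlap, ranking and motif window, and each replicate alone, are given in the closing section.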

Additional observations from a re-analysis of the deposited data

How the results depend on the processing

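Of 44 alternatives over the counts and medians, 38 stayed within 1.5 times the value reported and 6 moved. Some of the 38 could not have moved. Each V1 gene had 1 start, so using only the gene's own 5′ end repeats the reported value. A word absent within 50 bp, as the E-box, CTGATAA and AGGTCA were, is also absent within 25 bp. Matching by nearest summit could not move the median rank ratio, since only vha-12 had more than 1 overlapping region in a replicate. Those that stayed include every alternative for the E-box, CTGATAA and AGGTCA, at 0 of 7 summits throughout. They also include every alternative for the GC box, at 1 of 7. With a window of 250 bp, 2 of 8 V1 genes and 3 of 12 V0 genes had an IDR peak, in place of 7 and 9. The share of all protein-coding genes was not counted with that window. Of the 44 replicate regions near V1 genes, 33 were shared with the other replicate, and 16 of 19 were with a window of 500 bp, where fewer regions are in reach. Within 25 bp of the summit, 3 of 7 V1 peaks held GAGAGA and 0 held a GATA word. Leaving out a replicate gave 6 to 7 V1 genes, 6 to 9 V0 genes and 1 to 2 summits with a GATA word. The count for V1 without replicate 2 lost vha-12. Ranked by −log10 q, the median rank ratio of the V1 peaks was 2.17 in place of 1.63. That median was set by ties. The peaks of vha-8, vha-10, vha-13, vha-14 and vha-15 all had the largest −log10 q of each replicate list, 3.67 and 4.01. They therefore shared 1 ratio, which is no check of the 1.63. No paired analysis was possible because the 2 replicates form 1 group. Depth and the absence of an untagged sample limit all counts.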

Other observations

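Among 9 genes of lysosomal signalling, 6 had an IDR peak within 2000 bp of a start, against 18.4% of all protein-coding genes. Several of these genes have more than 1 annotated start, up to 10 in hlh-30 and 5 in flcn-1, which widens their reach. The strongest was at rheb-1, which encodes the small GTPase that activates TOR kinase, with pooled rank 257, replicate ranks 382 and 287, and a summit at -299 bp. hlh-30, which encodes the worm counterpart of TFEB, had one at rank 1122. This summit lay in an intron of hlh-30, 14865 bp downstream of its outermost 5′ end and at -1042 bp from an internal start. Further peaks were near flcn-1 (rank 1524), ragc-1 (2522), let-363 (2590), which encodes TOR, and lmtr-3 (3185). flcn-1 had 3 such peaks and ragc-1 had 2, and the rank given is that of the strongest. At flcn-1 the strongest lay at -1999 bp, at the edge of the window, and ranked 7840 in replicate 1 and 736 in replicate 2. daf-15, raga-1 and lmtr-2 had none. The strongest summit lay upstream of the whole gene for 5 of the 6, all but hlh-30, and within 500 bp of a start for 3 of 6.

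The word TGCAA, on either strand, was noticed when the summit sequences were read. It lay within 50 bp of 6 of 7 V1 summits (all but vha-15), against 22.2% of all IDR summits and 20.4% of the windows 300 bp before protein-coding starts. The word was chosen from these sequences, so the count is a description and was not tested.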
